A study of Mus musculus with 4 samples.

Results

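The 9 genes described here hold the transcriptional switch that turns a macrophage precursor into an osteoclast, the bone-resorbing cell. They were taken by symbol from the 22026 genes listed in every library. Of the 9, 6 are inducers (Nfatc1, Prdm1, Fos, Fosl2, Jdp2 and Mitf), 2 are repressors (Irf8 and Bcl6), and 1 is the receptor RANK (Tnfrsf11a). All 9 had an entry and passed the filter on low values (1 FPKM or more on average across the libraries). FPKM scales fragments by transcript length and library size, so that levels of different genes are given per length.

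RANK is the receptor of RANKL, the cytokine that starts osteoclast formation. Its signal raises c-Fos and then NFATc1, which amplifies its own gene and switches on the resorption genes. Irf8 and Bcl6 hold this programme down in precursors, and Blimp1, the product of Prdm1, lifts the brake by repressing such repressors. Osteoclast precursors are macrophages grown with M-CSF, the cell state measured here.

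RNA was sequenced from 4 cultures of bone marrow derived macrophages, 2 labelled RBP-J KO, with the genotype Rbpj f/f and LysM cre, and 2 labelled wildtype control (WT), all of strain C57BL/6. RBP-J, encoded by Rbpj, is the DNA-binding protein of Notch signalling, and the comparison asks which mRNA levels it controls in these cells. LysM cre is expressed from the Lyz2 gene of macrophages and neutrophils, so the deletion reaches myeloid cells. Whether the WT mice carried f/f alleles or the Cre is not given in the sources used here. Marrow of both groups came from 8 week old mice and was cultured for 3 days in CMG14-12 supernatant equivalent to 20 ng/ml of M-CSF. The labels name no RANKL treatment in either group. No label says which mice gave the libraries of a group. Ddx3y was detected only in the replicate 1 libraries and Xist only in the replicate 2 libraries. The 2 libraries of each group were therefore of opposite sex and did not come from 1 mouse. The number of mice behind each library is not stated. The p-values cover only library-to-library spread, part of which may be technical.

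Rbpj was at 51.5 and 77.0 FPKM in RBP-J KO replicates 1 and 2, against 355 and 573 FPKM in WT replicates 1 and 2. The cells carried macrophage markers, with Csf1r, the M-CSF receptor, at 4705 and 2287 FPKM in RBP-J KO and 3587 and 2404 FPKM in WT, opposite in direction between the replicate numbers. Of 9 macrophage markers, 3 were at least 1.5-fold lower in RBP-J KO in both replicate numbers and 0 higher, beside 3.63% and 3.86% of the 11851 genes tested. Lyz2, the locus of LysM cre, was at 94.3 and 115 FPKM in RBP-J KO and 218 and 192 FPKM in WT. Cd14, a lipopolysaccharide coreceptor, was at 764 and 800 FPKM in RBP-J KO and 1715 and 1570 FPKM in WT. Mrc1, the mannose receptor, was at 813 and 2807 FPKM in RBP-J KO and 1351 and 4263 FPKM in WT. None of the 3 passed the limma test across all genes (Benjamini-Hochberg adjusted p of 0.619 for Lyz2, 0.528 for Cd14 and 0.999 for Mrc1). Of 6 markers of mature osteoclasts, Calcr and Oscar were listed at 0 in all 4 libraries and the other 4 were detected, though not all in every library. Their sum was 356 and 28.1 FPKM in RBP-J KO and 230 and 25.5 FPKM in WT, most of it Acp5 and Ctsk. The replicate number also divides the libraries: the replicate 1 tables give genes, the replicate 2 tables give transcripts, and Ddx3y and Xist place the replicate 1 and replicate 2 libraries in opposite sexes. Summed markers of neutrophils were 8532 FPKM in RBP-J KO replicate 1 and 1206 FPKM in RBP-J KO replicate 2, against 7125 and 382 FPKM in WT. S100a8, a calprotectin subunit abundant in neutrophils, was at 2971 and 270 FPKM in RBP-J KO and 2473 and 69.6 FPKM in WT. Each difference is therefore also given inside each replicate number, called pair 1 and pair 2. Read depth is unknown.

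Promoter windows of 300 bases, from 250 before to 50 after an annotated start, were found in RefSeq (build GRCm38.p6) for 8 of the 9 genes, 14 windows in all. They were searched on both strands for letters bound by RBP-J (TGGGAA, and the longer GTGGGAA that contains it), AP-1 (TGANTCA), NFAT (TGGAAA) and Mitf (TCACGTGA). The windows of Prdm1 and of the upstream Irf8 start are shown because RBP-J letters lie in them and because these are the 2 genes with both RBP-J KO libraries above both WT libraries. Windows chosen in this way cannot show whether RBP-J letters go with higher levels in RBP-J KO. Capitals mark the letters found, and TTCCCA is TGGGAA read on the opposite strand.
Prdm1, chr10:44458699-44458998, minus strand: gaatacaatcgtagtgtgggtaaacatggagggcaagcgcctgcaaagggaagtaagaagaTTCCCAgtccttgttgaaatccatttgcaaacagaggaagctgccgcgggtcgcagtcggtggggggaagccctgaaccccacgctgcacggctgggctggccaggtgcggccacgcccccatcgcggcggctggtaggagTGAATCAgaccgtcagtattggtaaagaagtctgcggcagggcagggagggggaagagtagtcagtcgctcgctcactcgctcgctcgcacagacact
Irf8, chr8:120736108-120736407, plus strand: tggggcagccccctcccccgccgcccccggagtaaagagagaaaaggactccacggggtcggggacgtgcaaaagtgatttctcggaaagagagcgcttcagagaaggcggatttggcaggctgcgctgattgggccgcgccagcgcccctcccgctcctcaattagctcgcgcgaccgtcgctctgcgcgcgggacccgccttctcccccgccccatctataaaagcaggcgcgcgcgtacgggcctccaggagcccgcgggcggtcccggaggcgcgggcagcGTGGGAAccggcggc

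In the Prdm1 window the RBP-J letters begin 189 bases before the start, and the letters TGAATCA begin 48 bases before it. They match the AP-1 pattern as searched, in which the middle base N may be any base. In the Irf8 window the longer RBP-J letters begin at base 36 of the transcript. A further Irf8 window held TGGGAA once, 242 bases before its start, and no other of the 14 windows held these letters. Of 32851 RefSeq windows of this length, 25.6% held TGGGAA, 6.38% held GTGGGAA and 7.81% held TGANTCA. NFAT letters, present in 21.4% of windows, were found in 1 Mitf and 1 Bcl6 window. The letters for Mitf were in none of the 14 windows, and Fos, Fosl2, Jdp2 and Tnfrsf11a had no match of any kind. A match describes these letters only and does not show binding.

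Of the 9 genes, Prdm1 alone differed by at least 1.5-fold in the same direction in both pairs, and it was higher in RBP-J KO. Nfatc1, Fos, Jdp2, Irf8 and Bcl6 were also higher in RBP-J KO in both pairs, all by less than 1.5-fold. Mitf was lower in both pairs, and Fosl2 and Tnfrsf11a went in opposite directions. These 6 higher genes stand beside a background of 25.1% of the 11851 genes tested, the 1 lower gene beside 34.1%, and the 1 gene past 1.5-fold upwards beside 3.86%. Downwards 0 of the 9 were past 1.5-fold, beside 3.63%. None passed the test: the adjusted p in limma (Benjamini-Hochberg, all genes) was 0.999 for each of the 9. In that fit 0 of 11851 genes passed (0%), and 524 genes (4.42%) but 0 of the 9 had an unadjusted p under 0.05.

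**Figure D1:**
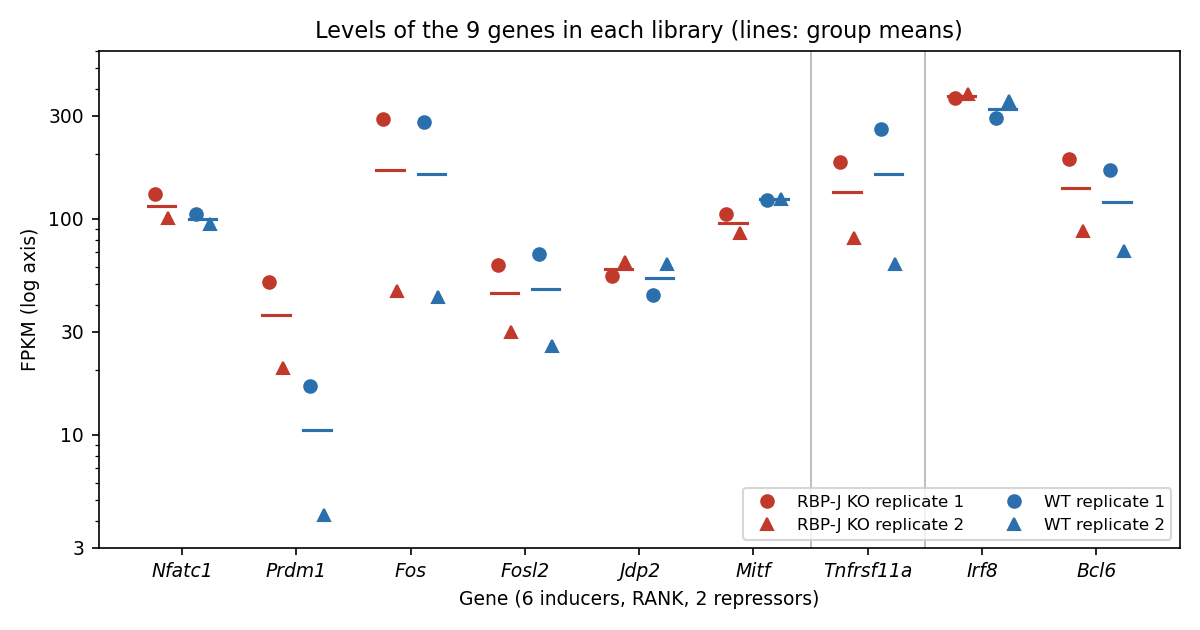
FPKM of the 9 genes on a log axis, with RBP-J KO libraries in red left of WT libraries in blue, circles for replicate 1, triangles for replicate 2 and lines for the means of 2 libraries. Irf8 was the highest and Prdm1 the lowest of the 9 in each library, and for Fos the symbols part by replicate number, at 291 and 46.4 FPKM in RBP-J KO and 281 and 43.6 FPKM in WT.

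Levels kept part of their order in every library. Irf8 was the highest of the 9 in each of the 4 libraries and lay above 87.1% or more of the genes detected there. Prdm1 was the lowest of the 9 in each, above 47.3% and 27.4% of detected genes in RBP-J KO and above 27.3% and 12.9% in WT. Between them the neighbours exchanged places. Fos was second of the 9 in both replicate 1 libraries and seventh in both replicate 2 libraries, so the order of Fos, Tnfrsf11a, Bcl6, Nfatc1 and Mitf is not resolved beyond the spread between libraries. In the plot of levels by library this shows as groups of symbols that cross between genes.

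Nfatc1, the master regulator of osteoclast formation, was at 130 and 101 FPKM in RBP-J KO against 105 and 94.5 FPKM in WT. RBP-J KO replicate 2 lay below WT replicate 1, so the groups overlapped. The means were 115 ± 20.5 FPKM in RBP-J KO and 99.9 ± 7.60 FPKM in WT (SD, n = 2 each), a log2 difference of 0.20 (SE 0.22) with a 95% interval of -0.38 to 0.77. The difference was 1.23-fold in pair 1 and 1.07-fold in pair 2. Of its relatives Nfatc2, Nfatc3 and Nfat5, 0 of 3 were higher in both pairs and 1 was lower, beside 25.1% and 34.1% of all genes tested. The lower gene was Nfatc2, with log2 differences of -0.53 and -0.03, and Nfatc4 was listed at 0 in all libraries.

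The 3 genes whose profile over the 4 libraries was nearest to that of Nfatc1 were Snw1, Napg and Zmynd11, each at a Euclidean distance of 0.03 on the centred log2(FPKM + 1) scale. Such a profile is common, as 5120 of the genes tested lay within 0.5 of it. Snw1, which encodes the splicing and Notch cofactor SKIP, was at 279 and 211 FPKM in RBP-J KO and 223 and 201 FPKM in WT.

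The replicate 2 tables split Nfatc1 into 6 transcripts, and the split differed more than the sum. This gene has a pair of promoters, the upstream one being inducible in lymphocytes and osteoclast precursors. By GENCODE M21 starts, 3 entries begin within 305 bases of the most upstream start and the other 3 begin 4898 bases further into the gene. The upstream entries summed to 0.510 FPKM in RBP-J KO replicate 2 and 9.63 FPKM in WT replicate 2, or 0.506% and 10.2% of the gene. In WT most of this came from NM_001164110, which encodes 939 residues and was at 0.120 FPKM in RBP-J KO and 7.66 FPKM in WT.

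The downstream entries carried nearly all Nfatc1 RNA in both libraries. NM_016791, a short form of 703 residues that ends 41230 bases before the long forms, was at 43.9 FPKM in RBP-J KO replicate 2 and 29.4 FPKM in WT replicate 2. The long forms NM_001164111 and NM_001164112 were at 34.4 and 21.9 FPKM in RBP-J KO and 35.1 and 20.4 FPKM in WT. Short forms together made up 43.8% of the gene in RBP-J KO and 33.2% in WT. These are 1 library per group, so the split has no replicate check, and the shares were assigned by the authors' quantification among overlapping transcripts.

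**Figure D2:**
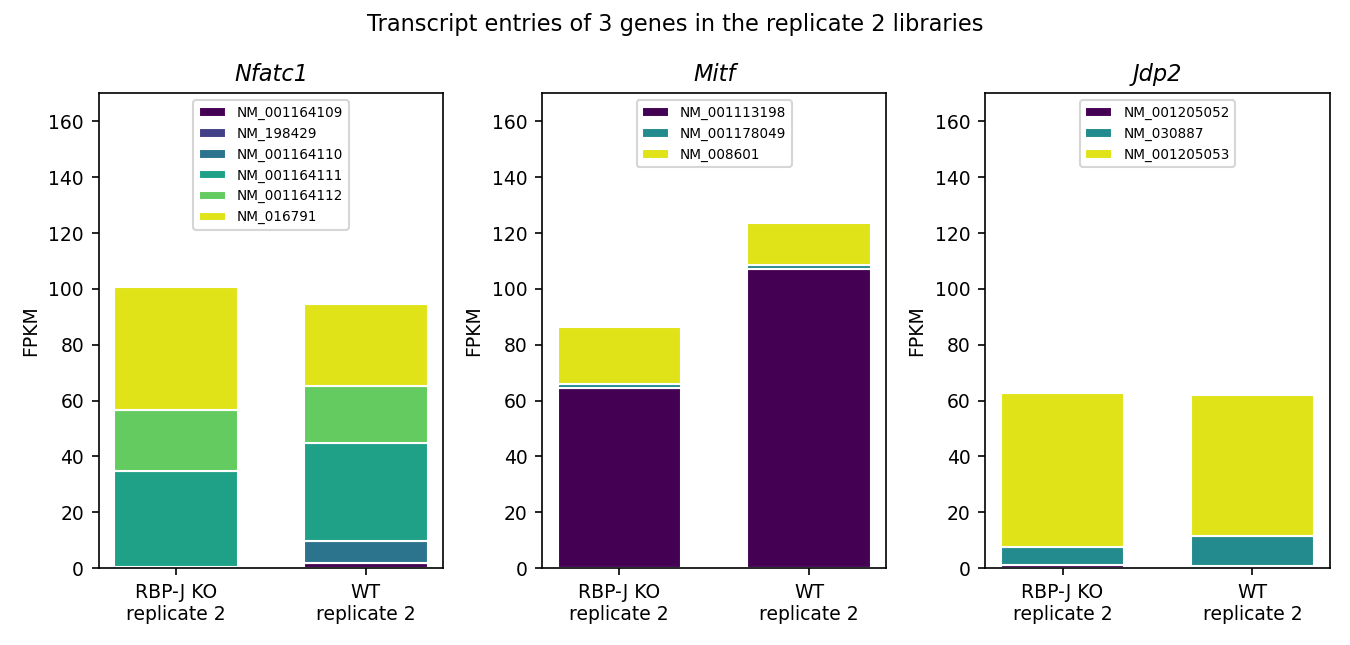
Stacked FPKM of each transcript entry of Nfatc1, Mitf and Jdp2 in RBP-J KO replicate 2 (left bar) and WT replicate 2 (right bar), ordered from the most upstream start at the bottom. The upstream Nfatc1 entries are at 0.510 FPKM in RBP-J KO, too thin to see, and at 9.63 FPKM in WT, and the long Mitf entry is at 64.6 FPKM in RBP-J KO against 107 FPKM in WT.

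Prdm1 encodes Blimp1, a zinc finger repressor that acts in osteoclast precursors, plasma cells and T cells. It was at 51.0 FPKM in RBP-J KO replicate 1 and 20.3 FPKM in RBP-J KO replicate 2, against 16.8 and 4.25 FPKM in WT. Both RBP-J KO libraries were above both WT libraries, as were those of Irf8, a pattern found in 11.7% of the genes tested. Within each group replicate 1 was well above replicate 2, so that RBP-J KO replicate 2 and WT replicate 1 lay close together.

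The Prdm1 difference was 2.92-fold in pair 1 and 4.05-fold in pair 2. Over all libraries it was 1.78 on the log2 scale (SE 0.76, 95% interval -0.24 to 3.81), larger in size than for 98.2% of the genes tested. The unadjusted limma p was 0.0719 and the adjusted p, over all genes tested, 0.999. Its size changed when single libraries were left out: the log2 difference was 0.90 without WT replicate 2 and 1.14 without RBP-J KO replicate 1. Such fits leave the replicate numbers unbalanced between the groups, so these values also hold part of the difference by replicate number. An exact permutation test of 2 against 2 libraries cannot go below p = 0.333 (two-sided).

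A gene of early granulocytes was among those most like Prdm1 in profile. By the distance used for Nfatc1, the 3 nearest profiles were those of Ear12, an eosinophil-type ribonuclease (0.10), Tle1, a corepressor of the Groucho family (0.29), and Prtn3, a neutrophil granule protease (0.29), and 20 genes lay within 0.5. Prtn3 was at 85.5 and 36.6 FPKM in RBP-J KO and 36.0 and 7.31 FPKM in WT. Mpo, the neutrophil peroxidase, was at 219 and 52.5 FPKM in RBP-J KO and 101 and 12.4 FPKM in WT. Elane, neutrophil elastase, had fold differences of 2.16 in pair 1 and 3.61 in pair 2.

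Of 12 neutrophil markers measured, 9 were higher and 0 lower in RBP-J KO across both pairs, beside 25.1% and 34.1% of all genes tested, with medians of 0.32 in pair 1 and 1.88 in pair 2 on the log2 scale. In bulk RNA, more cells of a type and more RNA per cell cannot be told apart. Summed B and plasma cell markers, the other cells in which Blimp1 is prominent, were at 482 and 616 FPKM in RBP-J KO and 591 and 637 FPKM in WT, and most of this was Xbp1, which macrophages also express. Igj, a defining plasma cell gene, was at 7.48 and 20.6 FPKM in RBP-J KO and 32.8 and 6.53 FPKM in WT. Cd79b, a chain of the B cell receptor complex, was the 1 gene of the 6 measured past 1.5-fold in both pairs, at 20.7 and 25.9 FPKM in RBP-J KO and 9.90 and 6.93 FPKM in WT. Thus the summed list was lower in each RBP-J KO library than in its WT partner, Igj went in opposite directions, and Cd79b was higher in RBP-J KO (adjusted p of 0.671 in limma).

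Of 5 dendritic cell markers measured, 3 were, like Prdm1, higher in RBP-J KO in both pairs and 0 were lower, beside the same 25.1% and 34.1%. The sum over the 7 markers listed was 169 and 25.1 FPKM in RBP-J KO and 30.5 and 41.1 FPKM in WT. It was highest in RBP-J KO replicate 1, the library with the most Prdm1. In pair 2 it was lower in RBP-J KO than in WT, opposite to Prdm1. Flt3, a receptor of dendritic cell precursors, was at 12.7 and 1.04 FPKM in RBP-J KO and 0.880 and 0 FPKM in WT. It was the 1 gene of the 5 past 1.5-fold in both pairs, but its pair 2 fold depends on the 1 FPKM added before the log. The part of neutrophil, B and dendritic cell markers in the Prdm1 difference was not tested.

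**Figure D3:**
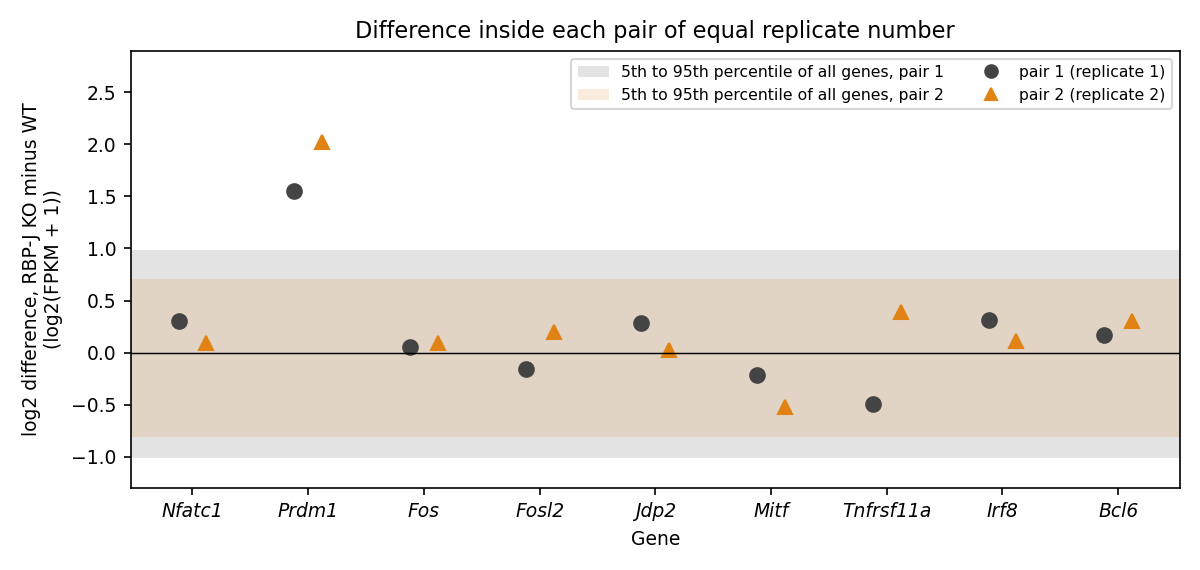
Difference in log2(FPKM + 1), RBP-J KO minus WT, of each gene in pair 1 (circles) and pair 2 (triangles), with bands for the 5th to 95th percentile of all 11851 genes tested in each pair. Prdm1, at 1.55 and 2.02, lies above both bands, and the other 8 genes lie within them.

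Fos, Fosl2 and Jdp2 encode basic leucine zipper proteins of the AP-1 family, of which Fos is needed for osteoclast formation. Fos was at 291 and 46.4 FPKM in RBP-J KO and 281 and 43.6 FPKM in WT. Libraries of equal number were nearly alike and those of different number were far apart. The log2 difference between groups was 0.07 (SE 1.25), against 2.64 between replicate 1 and replicate 2, a 6.24-fold difference by number. The wide 95% interval of -3.26 to 3.40 comes from a fit that counts this spread as error, while the pairs differed by 1.04-fold and 1.06-fold.

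Fosl2, which encodes Fra-2, was at 61.2 and 29.8 FPKM in RBP-J KO and 68.4 and 25.9 FPKM in WT. Its groups overlapped, with a log2 difference of -0.16 in pair 1 and 0.20 in pair 2. Jdp2, a dimer partner of Jun proteins whose loss in mice impairs osteoclast formation, was at 54.3 and 62.8 FPKM in RBP-J KO and 44.6 and 62.0 FPKM in WT. The Jdp2 groups overlapped as well, with 1.21-fold in pair 1 and 1.01-fold in pair 2. Of its 3 transcripts, which all encode 163 residues, NM_001205053 held 87.9% in RBP-J KO replicate 2 and 81.5% in WT replicate 2.

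Of 7 measured AP-1 partners 2 were higher and 1 lower in both pairs, beside 25.1% and 34.1% of all genes tested, and 0 passed the adjusted threshold. Atf3 was the 1 gene of the 7 that, like Fos, was higher in both replicate 1 libraries than in both replicate 2 libraries. Jun was at 234 and 231 FPKM in RBP-J KO and 242 and 263 FPKM in WT. The Fos family members Fosb and Fosl1 were under the filter, at no more than 1.37 and 2.27 FPKM.

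Mitf, a helix-loop-helix zipper factor that acts with PU.1 on osteoclast genes, was the only one of the 9 with both RBP-J KO libraries below both WT libraries. It was at 105 and 86.3 FPKM in RBP-J KO against 122 and 124 FPKM in WT, a pattern found in 18.2% of the genes tested. The means were 95.5 ± 13.0 FPKM in RBP-J KO and 123 ± 1.63 FPKM in WT (SD, n = 2 each). The log2 difference was -0.37 (SE 0.20, 95% interval -0.89 to 0.16), with 1.16-fold lower in pair 1 and 1.43-fold lower in pair 2.

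The Mitf transcripts differed in opposite directions. NM_001113198, the form with the most upstream start and 526 residues, was at 64.6 FPKM in RBP-J KO replicate 2 and 107 FPKM in WT replicate 2. NM_008601, which starts 184734 bases downstream and encodes 419 residues, the form best known from melanocytes, was at 20.4 FPKM in RBP-J KO and 15.3 FPKM in WT. Its share of the gene was 23.6% in RBP-J KO and 12.3% in WT, again from 1 library per group. NM_001178049 was under 1.5 FPKM in both.

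The relatives of Mitf were not lower in RBP-J KO in either pair, and most of their differences were small. Tfe3, Tfeb and Tfec, listed under their older symbols Tcfe3, Tcfeb and Tcfec, were all higher in both RBP-J KO libraries than in both WT libraries, 3 of 3 against a background of 11.7%. Tcfec, whose product is enriched in macrophages, had the largest difference of the 3, at 203 and 234 FPKM in RBP-J KO and 128 and 175 FPKM in WT. Tcfe3 was nearly level, at 269 and 262 FPKM in RBP-J KO and 250 and 257 FPKM in WT. Tcfeb was at 72.1 and 70.7 FPKM in RBP-J KO and 55.6 and 63.3 FPKM in WT, or 1.29-fold and 1.12-fold higher. Limma gave an adjusted p of 0.999 for each of them. These 3 genes are named beyond the naming rule because Mitf is read against them.

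RANK, the product of Tnfrsf11a, was at 184 and 81.2 FPKM in RBP-J KO against 260 and 61.6 FPKM in WT. The lowest and the highest library were both WT, so the groups overlapped fully. The pairs differed in sign, with RBP-J KO lower by 1.41-fold in pair 1 but higher by 1.31-fold in pair 2. The log2 difference over all libraries was -0.05 (SE 0.81, 95% interval -2.19 to 2.09). Replicate 1 was 3.07-fold above replicate 2. Its nearest profiles were Gpr19 (distance 0.19), Slc7a8 (0.25) and Tspan9 (0.27). Slc7a8, an amino acid transporter, was at 857 and 356 FPKM in RBP-J KO and 1099 and 330 FPKM in WT.

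The ligand Tnfsf11 (RANKL) and its decoy receptor Tnfrsf11b (osteoprotegerin) were listed at 0 in all 4 libraries. The remaining 21 of 23 genes of RANK signalling were measured. Of these, 10 were higher and 3 lower in RBP-J KO in both pairs, beside 25.1% and 34.1% of all genes tested, with a median log2 difference of 0.11 against -0.05 over all genes tested, and 0 reached 1.5-fold in both pairs. Traf6, the adaptor that carries the RANK signal, was at 70.6 and 60.3 FPKM in RBP-J KO and 74.5 and 58.3 FPKM in WT. None of the 21 passed the adjusted threshold.

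Irf8, an interferon regulatory factor that blocks NFATc1 function and expression, was at 362 and 377 FPKM in RBP-J KO against 292 and 350 FPKM in WT. The groups did not overlap, but the gap between RBP-J KO replicate 1 and WT replicate 2 was small. The means were 369 ± 10.3 FPKM in RBP-J KO and 321 ± 41.2 FPKM in WT (SD, n = 2 each). The log2 difference of 0.21 (SE 0.19) had a 95% interval of -0.29 to 0.71, with 1.24-fold in pair 1 and 1.08-fold in pair 2.

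Bcl6, a zinc finger repressor of osteoclast genes, was at 189 and 87.8 FPKM in RBP-J KO against 168 and 71.3 FPKM in WT. Here the groups overlapped, because replicate 1 was 2.24-fold above replicate 2. The pairs differed by 1.13-fold and 1.23-fold, both upwards (log2 difference 0.23, SE 0.57, 95% interval -1.29 to 1.76).

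Of 6 other osteoclast repressors 5 were higher in both pairs and 0 lower, beside 25.1% and 34.1% of all genes tested, and their median was 0.41. Upwards, 2 of the 6 reached 1.5-fold in both pairs, beside 3.86%. These were Id1 and Id3, which bind and block helix-loop-helix proteins. Id1 was at 342 and 55.5 FPKM in RBP-J KO and 193 and 10.3 FPKM in WT. Id3 was at 743 and 53.9 FPKM in RBP-J KO and 319 and 5.28 FPKM in WT. All 6 had an adjusted p of 0.999 in limma, and 5 of them were higher in both replicate 1 libraries than in both replicate 2 libraries, beside 34.4%. By pair, the median of this list was 0.68 in pair 1 and 0.41 in pair 2. Neutrophil markers, with the medians of 0.32 and 1.88 given above, had the larger difference in pair 2. So did Id1 (0.82 in pair 1 and 2.32 in pair 2), Id3 (1.22 and 3.13) and Nr4a1 (0.01 and 0.60). In Id2 (0.57 and -0.10), Gfi1 (0.25 and 0.19) and Bach2 (0.80 and 0.21) the difference was larger in pair 1. The part of neutrophil markers in this list was not tested.

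Of 7 other factors that promote osteoclasts, 2 were higher and 2 lower in both pairs, beside 25.1% and 34.1% of all genes tested, with a median of 0.11. Spi1, which encodes PU.1 and is listed as Sfpi1, was at 1462 and 1167 FPKM in RBP-J KO and 1242 and 1086 FPKM in WT. Writers of DNA and histone methylation, Dnmt3a, Dnmt1, Ezh2, Eed and Suz12, differed in sign between the pairs in 5 of 5 cases. This stands beside 4837 of the 11851 genes tested. Resorption and fusion genes that NFATc1 activates were measured for 9 of 12. Of these, 4 were higher and 3 lower in both pairs, beside 25.1% and 34.1%. Past 1.5-fold in both pairs were 2 higher and 1 lower, beside 3.86% and 3.63%.

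The 3 past 1.5-fold in both pairs are fusion and resorption genes. DC-STAMP (listed as Tm7sf4), needed for precursor fusion, was at 5.66 and 0.940 FPKM in RBP-J KO and 2.91 and 0 FPKM in WT. OC-STAMP (listed as 4833422F24Rik), a related fusion protein, was at 5.88 and 2.79 FPKM in RBP-J KO and 1.37 and 0 FPKM in WT. Both fusion genes were low and at 0 in WT replicate 2, so their pair 2 folds depend on the 1 FPKM added before the log. Cathepsin K (Ctsk), the collagen-degrading protease, was at 30.8 and 3.86 FPKM in RBP-J KO and 123 and 9.43 FPKM in WT. Acp5, the phosphatase TRAP, was higher in both pairs but past 1.5-fold in pair 1 only. Its levels were 314 and 20.5 FPKM in RBP-J KO and 103 and 16.1 FPKM in WT. Mmp9 was 1.21-fold and 1.40-fold higher in pairs 1 and 2. In the other direction, Itgb3 was 1.31-fold and 1.95-fold lower, and Atp6v0d2 was 1.20-fold and 1.35-fold lower.

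Inducers were then set against repressors inside each library, where the scaling of a library cancels. For the 12 ratios of 6 inducers to 2 repressors, log2((FPKM + 1)/(FPKM + 1)) was higher in RBP-J KO in both pairs for 2, lower in both for 7 and of opposite sign for 3. Both of the higher ratios hold Prdm1. Its ratio to Irf8 was -2.80 and -4.15 in RBP-J KO and -4.04 and -6.06 in WT, and its ratio to Bcl6 was -1.87 and -2.06 in RBP-J KO and -3.25 and -3.78 in WT. The ratio to Bcl6 did not overlap between groups, and that to Irf8 did.

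Of the 10 ratios without Prdm1, 7 were lower in RBP-J KO in both pairs and 0 higher, with differences between -0.82 and 0.13. They share the denominators Irf8 and Bcl6, which were themselves higher in RBP-J KO in both pairs. The median of all genes tested was -0.05 in pair 1 and -0.02 in pair 2. A lower ratio therefore need not mean a lower inducer, and the share of such ratios over all genes was not computed. The ratio of Nfatc1 to Irf8 was -1.47 and -1.89 in RBP-J KO and -1.46 and -1.88 in WT, a difference of -0.01 in pair 1 and -0.02 in pair 2. Nfatc1 and Irf8 thus differed from WT by like amounts within each pair. Mitf to Irf8, at -1.78 and -2.11 in RBP-J KO and -1.25 and -1.49 in WT, was 1.44-fold and 1.54-fold lower. Mitf to Bcl6, at -0.85 and -0.02 in RBP-J KO and -0.46 and 0.79 in WT, was 1.31-fold and 1.76-fold lower. Its groups overlapped, while those of Mitf to Irf8 did not. Fosl2 to Bcl6, like Mitf to Irf8, was lower without overlap, by 0.33 and 0.10 on the log2 scale.

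**Figure D4:**
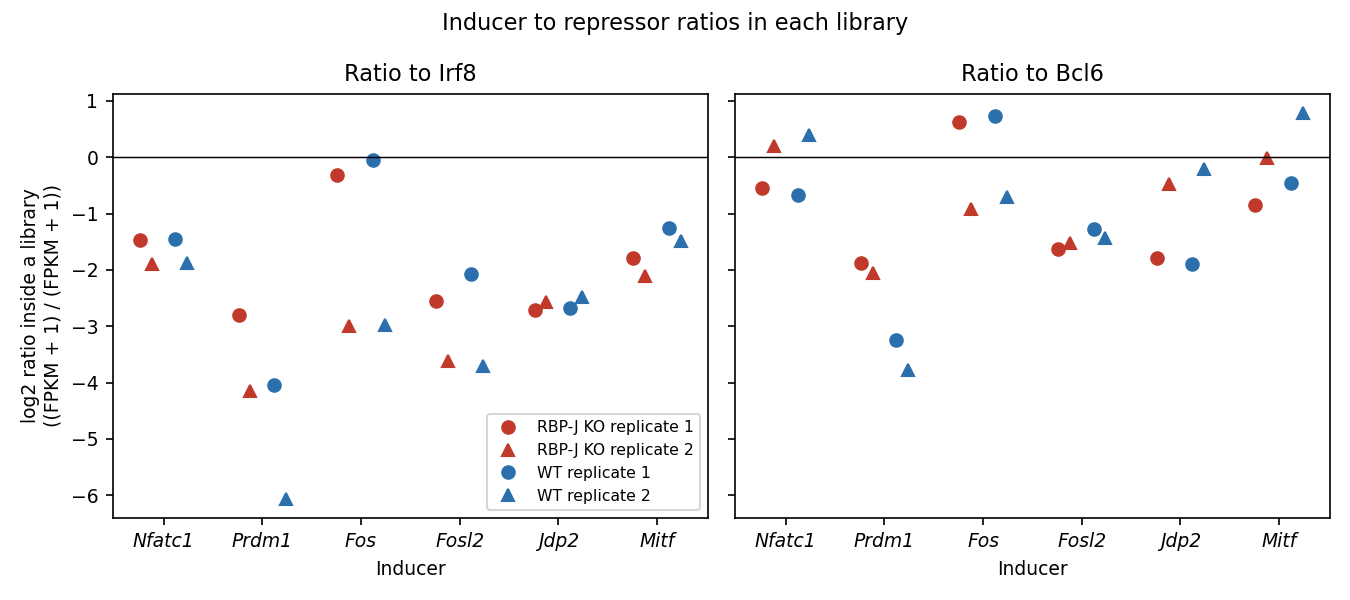
The log2 ratio of each inducer to Irf8 (left panel) and to Bcl6 (right panel) in each library, RBP-J KO in red left of WT in blue, circles for replicate 1 and triangles for replicate 2. Prdm1 ratios lie higher in RBP-J KO within each replicate number, while those of Nfatc1 to Irf8 are nearly equal at -1.47 and -1.46 in replicate 1.

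For most of the 9 genes the replicate number separated the libraries more than the group did. Nfatc1, Fos, Fosl2, Tnfrsf11a and Bcl6 were higher in both replicate 1 libraries than in both replicate 2 libraries, 5 of 9 against 34.4% of all genes tested. Jdp2 was lower in both, 1 of 9 against 18.3%. The log2 difference by replicate number exceeded that by group in size for these 6 genes. In Prdm1, Mitf and Irf8 the difference by group was the larger, at 1.78 against 1.53 for Prdm1, -0.37 against 0.12 for Mitf and 0.21 against -0.16 for Irf8.

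**Figure D5:**
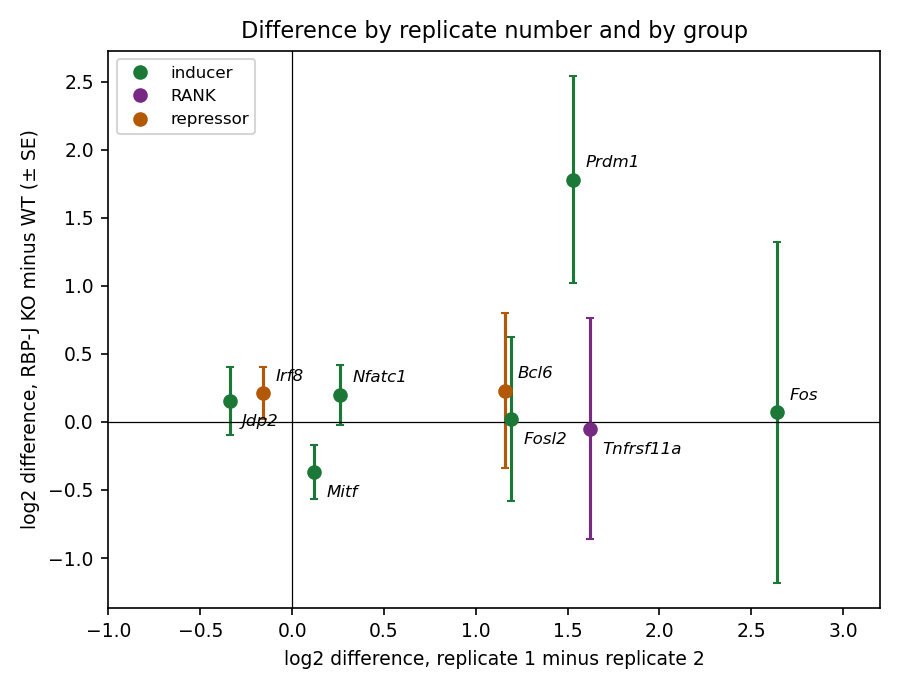
For each gene the log2 difference of replicate 1 minus replicate 2 (horizontal) and of RBP-J KO minus WT with its SE (vertical). Prdm1 stands apart upwards at 1.78, and Fos lies farthest to the right at 2.64 with a group difference of 0.07.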

How the data were processed

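RNA was measured in 4 libraries of bone marrow derived macrophages, 2 per group, grouped by sample title. The values the authors deposited were read as FPKM, since the submitters' processing notes name TopHat, Cufflinks and build mm9, while no unit stands in the file headers. The scale is uncertain: FPKM times transcript length summed to 5.32 times (RBP-J KO replicate 2) and 5.61 times (WT replicate 2) what the definition gives, so folds are firmer than levels. The files hold no counts.

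Replicate 2 transcripts were summed per symbol, and 25 symbols turned into dates were restored. Differences were fitted on log2(FPKM + 1), which understates low genes, for 11851 genes with limma 3.58.1 in R 4.3.3 (group as the only term, variance trend, two-sided, Benjamini-Hochberg, threshold 0.05), and the procedure was tested on simulated data. Figures used Python 3.11.15 and matplotlib 3.10.9. Transcripts were matched to GENCODE M21 (18 of 18), and older symbols through RefSeq synonyms.

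The members and lists were chosen with earlier results of these data known, so lists are described by counts and medians. Genes outside the 9 are named if past 1.5-fold in both pairs (at most 3 per list) or nearest in profile, with Traf6, Spi1 and Csf1r; 1 further gene of the rule is not reported here, and values of others were added after they were seen. Alternatives were the pseudocount, filter, scaling, variance trend, replicate block, highest transcript and each library left out.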

Additional observations from a re-analysis of the deposited data

Results flagged for a closer look

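Fosl2 and Tnfrsf11a differed in sign between the replicate numbers. For Tnfrsf11a the log2 difference, RBP-J KO minus WT, was -0.49 in replicate 1 and 0.39 in replicate 2. For Fosl2 it was -0.16 in replicate 1 and 0.20 in replicate 2. With 1 library per group inside each replicate number, the difference between the pairs was not tested. The replicate numbers also differ in table layout and in the sex read from Ddx3y and Xist, and these cannot be told apart from the number itself.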

How the results depend on the processing

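In limma 0 genes, and 0 of the 9, passed the adjusted threshold in all 13 alternatives. Upper-quartile scaling took Tnfrsf11a to 0.00, just across zero, and moved the median of all genes by 0.05. No other direction turned in the alternatives that keep all libraries. Leaving out 1 library at a time gave log2 differences between -1.26 and 1.40 for Fos, -0.66 and 0.70 for Fosl2, and -0.08 and 0.38 for Jdp2. For Tnfrsf11a they lay between -1.08 and 0.98, and for Bcl6 between -0.38 and 0.85. Such fits leave the replicate numbers unbalanced between the groups, so their values also hold part of the difference by replicate number. A turned sign there cannot show that the direction inside the pairs is unstable. Fos, Jdp2 and Bcl6 were higher in RBP-J KO in both pairs, while Fosl2 and Tnfrsf11a differed in sign. Prdm1 (0.90 to 2.66), Nfatc1 (0.01 to 0.38), Irf8 (0.08 to 0.34) and Mitf (-0.50 to -0.23) kept their direction when a library was left out. In these fits the lone library of a group is assumed to vary like the other group. With the replicate number as a block, limma gave Prdm1 an unadjusted p of 0.00114 and an adjusted p of 0.0916 (log2 difference 1.78, SE 0.23, higher in both pairs), and 1557 genes against 524 had an unadjusted p under 0.05. Same-numbered libraries deviated together (r = 0.64 across 11851 genes), but no label states a pairing. The count of ratios higher in both pairs was 2 or, with the highest transcript, 3. Without counts or depth, precision at low values such as Prdm1 in WT replicate 2 is unknown.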
